A study of Mus musculus with 18 samples.

Results

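The genes described here are the mouse gasdermins Gsdmc, Gsdmc2, Gsdmc3, Gsdmc4 and Gsdmd, 5 of the 43432 gene identifiers counted in sorted intestinal stem cells with and without the polarity scaffold Dlg1. They were selected on measured values, the large values of Gsdmc2 and Gsdmc4 at 2 days after tamoxifen. Their levels at 2 days are therefore given as a description, with no test, and tests are given only at 14 days. Gasdermins are held inactive by their C-terminal part. When a protease cuts the protein, the freed N-terminal part forms pores in membranes, which can release cytokines and end in the lytic cell death called pyroptosis. In mouse intestine the Gsdmc copies are known as genes that the type 2 cytokines interleukin 4 and interleukin 13 induce through Stat6, for example during worm infection, and Gsdmd is the gasdermin cut by inflammatory caspases.

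The series holds 18 libraries of stem cells sorted from the intestinal epithelium of mice aged 8 to 16 weeks, with 5000 to 10000 cells per library. The Dlg1 conditional knock-out (KO) and the wild type (WT) were both given tamoxifen, which starts the deletion in the KO, and were compared 48 hours (2 days) later, with 4 libraries each, and 14 days later, with 5 libraries each. The sources used here do not give the Cre driver, the deleted exons or the marker used for sorting. The labels do not say which libraries came from separate animals. Every group held libraries with and libraries without Y-linked transcripts, hence RNA of at least 2 animals, but how many animals stand behind each group is not known, and a p-value here reflects the spread among these libraries alone. In pooled cells, fewer cells that express a gene and less of its RNA per cell cannot be told apart.

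Libraries held 14.8 to 40.5 M counts at 2 days and 11.1 to 15.7 M at 14 days. WT library 1 at 2 days had the highest mitochondrial share, 49.1%, and KO library 5 at 14 days had 35.3% of its counts on Gm10800 alone. Arhgap31, which switches off Cdc42 and Rac1, was at 0.246 to 0.829 CPM (counts scaled to a common library size) in KO and 1.67 to 5.94 CPM in WT at 2 days, and at 0.601 to 2.90 CPM in KO and 6.61 to 13.03 CPM in WT at 14 days. Dlg1 counted over its whole length overlapped between the genotypes, at 38.4 to 58.0 CPM in KO and 48.3 to 69.5 CPM in WT at 2 days. At 14 days it was at 41.8 to 100.8 CPM in KO, the highest in KO library 5, and 60.5 to 85.8 CPM in WT (log2 fold change -0.17, edgeR adjusted p = 0.957). Such a count need not follow a deletion of some exons. All 10 stem cell markers passed the filter on low counts at both times, and Olfm4 was at 2258 to 2724 CPM in KO and 2168 to 3324 CPM in WT at 2 days. The 10 leukocyte markers summed to 405 to 753 CPM in KO and 323 to 1004 CPM in WT at 2 days, and to 844 to 1461 CPM in KO and 410 to 1506 CPM in WT at 14 days. Most of that sum was Cd74, an antigen-presentation chaperone that intestinal epithelium can express too, at 386 to 746 CPM in KO and 307 to 943 CPM in WT at 2 days. Ptprc, the pan-leukocyte marker CD45, was at 0.111 to 1.96 CPM in KO and 0.0576 to 1.78 CPM in WT at 2 days. Of the 5 leukocyte markers tested at 2 days, 2 were higher and 3 lower in KO, with a median log2 fold change of -0.056. Among them, 1 had every KO library below every WT library, which 1.94% of all genes tested did. This was the myeloid integrin Itgam, at 3.01 to 6.94 CPM in KO and 8.00 to 55.6 CPM in WT (log2 fold change -2.07, SE 0.61, edgeR adjusted p = 0.866). Gzma, a granzyme gene of the same list, went the other way (log2 fold change 1.33, SE 0.75, edgeR adjusted p = 0.866). None of the 10 leukocyte markers was at 0 in all libraries of a time, and their part in the gasdermin levels was not tested.

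The Gsdmc copies lie side by side on the minus strand of chromosome 15 of GRCm38, in the order Gsdmc, Gsdmc2, Gsdmc3 and Gsdmc4, within 136.33 kb (chr15:63775968-63912297). Gsdmd lies 11.95 Mb away on the plus strand (chr15:75862327-75867408). The coding sequences of Gsdmc2 and Gsdmc3 were identical at 97.1% of 1440 aligned bases, those of Gsdmc2 and Gsdmc4 at 93.5% and those of Gsdmc3 and Gsdmc4 at 93.4%. Gsdmc was 86.0% to 87.1% identical to the other copies, and Gsdmd 46.4% to 47.2% identical to any of them. To show how far reads can tell the copies apart, 60 coding bases are printed from the stretch where Gsdmc2, Gsdmc3 and Gsdmc4 differ most, at 16 positions. Capitals mark bases that differ from Gsdmc2, and the sequence runs across an exon junction, on the minus strand.
Gsdmc2 (chr15:63826884-63827775): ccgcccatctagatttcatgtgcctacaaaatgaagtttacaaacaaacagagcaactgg
Gsdmc3 (chr15:63860314-63861195): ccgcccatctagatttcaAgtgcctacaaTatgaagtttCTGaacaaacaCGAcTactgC
Gsdmc4 (chr15:63893831-63894684): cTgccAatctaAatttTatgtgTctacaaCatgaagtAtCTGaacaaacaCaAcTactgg
Gsdmc (chr15:63778660-63779540): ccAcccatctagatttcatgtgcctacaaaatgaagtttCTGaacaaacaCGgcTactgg
In the first 60 coding bases, by contrast, Gsdmc2, Gsdmc3 and Gsdmc4 do not differ at any position, while Gsdmc does at 7.
Gsdmc2, Gsdmc3 and Gsdmc4 alike (for Gsdmc2 chr15:63835884-63835943): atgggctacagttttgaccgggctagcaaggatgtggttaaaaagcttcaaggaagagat
Gsdmc (chr15:63804533-63804592): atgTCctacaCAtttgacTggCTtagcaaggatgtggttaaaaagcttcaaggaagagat

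Over the annotated transcripts, 51.3% of the 50-base stretches of Gsdmc2, 46.0% of those of Gsdmc3, 39% of those of Gsdmc4 and 16.1% of those of Gsdmc also occur in another gene, against 0 of those of Gsdmd. Of stretches of 100 bases, 28.6% of those of Gsdmc2, 28.4% of those of Gsdmc3 and 20.2% of those of Gsdmc4 were shared. The sources used here do not say how reads that match several copies were counted, so the level of each copy alone is uncertain. The sum over the copies is given beside them because it does not depend on how reads within the family were split, although reads left out for matching several places would be missing from it too.

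At 2 days the Gsdmc copies had some of the largest fitted folds of the table, higher in KO, and the KO libraries differed widely among themselves. Gsdmc2, a pore-forming copy, was at 4.79, 14.2, 66.0 and 59.4 CPM in KO libraries 1 to 4, against 1.12, 2.72, 0.978 and 0.647 CPM in WT libraries 1 to 4. Every KO library was above every WT library, but KO libraries 3 and 4 were far above KO libraries 1 and 2. The group means were 36.1 ± 31.1 CPM in KO and 1.37 ± 0.925 CPM in WT (SD, n = 4 each), a fitted log2 fold change of 4.71 (SE 0.78), which ranked 1 of the 13031 genes tested.

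Gsdmc4, at the far end of the cluster, had the most counts of the copies. It was at 10.2, 18.1, 116 and 65.4 CPM in KO libraries and 7.60, 5.84, 1.90 and 1.29 CPM in WT libraries. The groups did not overlap, although KO library 1 and WT library 1 were close. Its means were 52.3 ± 48.8 CPM in KO and 4.16 ± 3.06 CPM in WT (SD, n = 4 each), with a fitted log2 fold change of 3.63 (SE 0.77), ranking 5.

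Gsdmc3, the copy nearest in sequence to Gsdmc2, was at 0.879, 4.2, 37.0 and 25.2 CPM in KO libraries and 0.507, 1.78, 0.921 and 0 CPM in WT libraries. KO libraries 3 and 4 stood above the rest, and KO library 1 lay inside the range of WT. The means were 16.8 ± 17.2 CPM in KO and 0.803 ± 0.754 CPM in WT (SD, n = 4 each), and the fitted log2 fold change was 4.38 (SE 1.11). Under a minimum count of 50 in place of 10, Gsdmc3 at 2 days was not kept.

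The copies summed gave 15.8, 36.5, 219 and 150 CPM in KO libraries and 9.23, 10.3, 3.80 and 1.94 CPM in WT libraries. All KO libraries were above all WT libraries, with KO library 3 the highest and KO library 1 the lowest of the KO group. The fitted log2 fold change of the sum was 4.04 (SE 0.78). Leaving out each library in turn gave 3.40 to 4.40, with the lowest value without KO library 3.

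Gsdmc, the first gene of the cluster, had 0 counts in all 18 libraries. A count of 0 allows up to 0.0835 to 0.184 CPM per library at 2 days and 0.168 to 0.428 CPM at 14 days, taking 3 counts as the limit, for counting error only. Gsdmc was not tested, so 4 of the 5 genes passed the filter on low counts at each time.

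Gsdmd, the executioner gasdermin downstream of the inflammasome, was at 40.0, 33.1, 19.8 and 21.5 CPM in KO libraries and 5.50, 18.9, 23.0 and 19.6 CPM in WT libraries at 2 days. KO libraries 3 and 4, the highest for the Gsdmc copies, were the lowest KO libraries for Gsdmd, and the groups overlapped. The means were 28.6 ± 9.60 CPM in KO and 16.7 ± 7.70 CPM in WT (SD, n = 4 each), a fitted log2 fold change of 0.78 (SE 0.39), which ranked 858. WT library 1, the library with the highest mitochondrial share, gave the lowest value.

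Of the 4 gasdermins tested at 2 days, Gsdmc2 and Gsdmc4 had every KO library above every WT library, which 2.03% of all genes tested did. A fold of at least 4 upward was reached by Gsdmc2, Gsdmc3 and Gsdmc4, against 0.56% of all genes tested. The 2-day contrast chose these genes, so nothing is read from either count. With p-values of the edgeR quasi-likelihood fit adjusted by Benjamini and Hochberg's method, 0.0% of the 13031 genes passed an adjusted p of 0.05 at 2 days (640, or 4.91%, had an unadjusted p under 0.05).

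**Figure D1:**
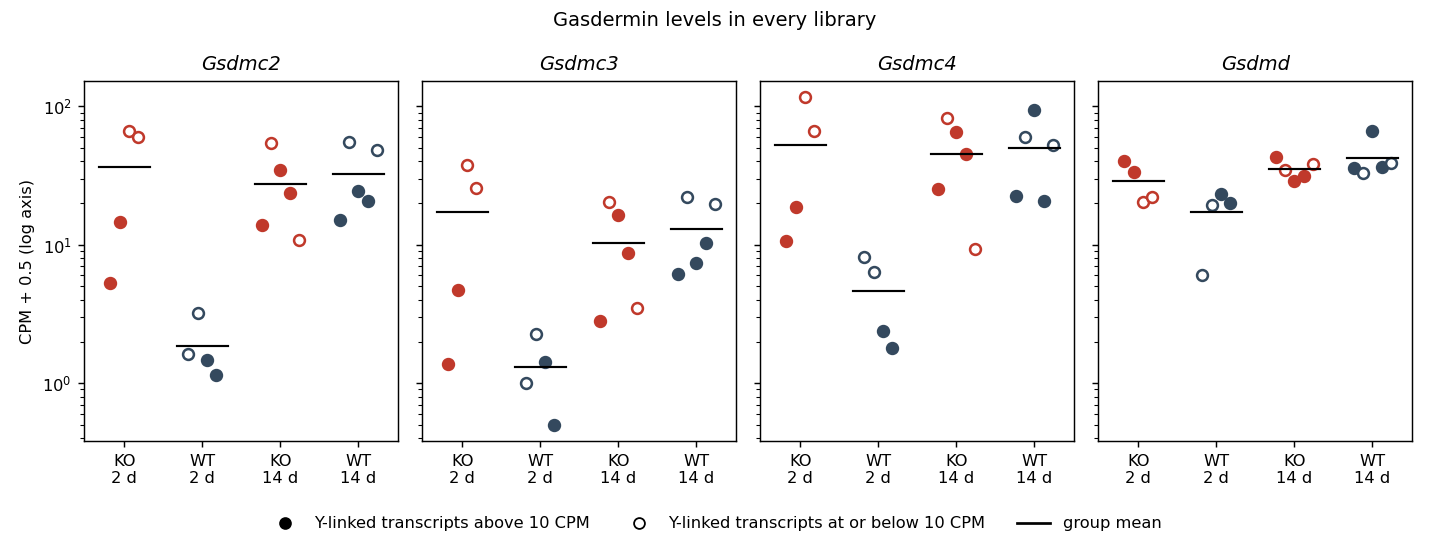
Level of each gasdermin gene in every library, as CPM + 0.5 on a log axis, for KO (red) and WT (blue) at 2 and 14 days; lines are group means, and open points are libraries with Y-linked transcripts at or below 10 CPM. At 2 days the KO libraries of Gsdmc2 run from 4.79 to 66.0 CPM, all above WT, whereas at 14 days KO (10.4 to 54.3 CPM) and WT (14.6 to 54.4 CPM) cover nearly the same range.

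At 14 days no difference between genotypes was detected for any gasdermin gene, and the copies were expressed in both genotypes. Gsdmc2 was at 13.3, 54.3, 34.2, 23.2 and 10.4 CPM in KO libraries 1 to 5, against 14.6, 54.4, 24.1, 20.2 and 47.8 CPM in WT libraries 1 to 5. The genotypes overlapped over nearly the whole range. The means were 27.1 ± 17.9 CPM in KO and 32.2 ± 17.7 CPM in WT (SD, n = 5 each). The log2 fold change was -0.24 (95% interval -1.19 to 0.70, edgeR quasi-likelihood adjusted p = 0.967 over all genes). A two-sided exact permutation test gave p = 0.587, where 5 against 5 libraries allow no p below 0.00794.

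Gsdmc4 was at 24.7, 82.3, 65.1, 44.9 and 8.84 CPM in KO libraries and 22.2, 59.6, 94.4, 20.3 and 52.3 CPM in WT libraries at 14 days. The lowest library was a KO and the highest a WT, with the rest mixed. The log2 fold change was -0.13 (95% interval -1.22 to 0.95, edgeR adjusted p = 0.987, exact permutation p = 0.714). Its sign turned without KO library 1 (0.025), without KO library 5 (0.11) and without WT library 3 (0.23).

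Gsdmc3 was at 2.32, 19.7, 16.0, 8.26 and 3.0 CPM in KO libraries and 5.64, 21.6, 6.91, 9.75 and 19.1 CPM in WT libraries at 14 days. It had the fewest counts of the counted copies in all 10 libraries, and its groups overlapped. The log2 fold change was -0.34 (95% interval -1.51 to 0.82, edgeR adjusted p = 0.963, exact permutation p = 0.421).

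The copies summed gave 40.3, 156, 115, 76.3 and 22.3 CPM in KO libraries and 42.4, 136, 125, 50.3 and 119 CPM in WT libraries at 14 days. Neither genotype stood above the other. The log2 fold change of the sum was -0.20 (95% interval -1.17 to 0.77, edgeR adjusted p = 0.974, exact permutation p = 0.563), and without KO library 5, the Gm10800-rich library with the lowest value, it was 0.022. For Gsdmc2 the sign turned without WT library 2 (0.029).

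Gsdmd was at 42.5, 34.5, 28.2, 31.0 and 37.7 CPM in KO libraries and 35.5, 32.3, 65.8, 35.8 and 38.3 CPM in WT libraries at 14 days. WT library 3 was high, and the other 9 libraries lay within 28.2 to 42.5 CPM. The means were 34.8 ± 5.61 CPM in KO and 41.5 ± 13.7 CPM in WT (SD, n = 5 each). The log2 fold change was -0.25 (95% interval -0.69 to 0.18, edgeR adjusted p = 0.957, exact permutation p = 0.389). With counts divided by raw totals instead of TMM-scaled totals, all KO libraries (23.7 to 38.7 CPM) lay below all WT libraries (39.5 to 54.5 CPM), which 0.7% of all genes tested also did, and the exact permutation p was 0.00794, the smallest possible. Raw totals moved the median over all genes to -0.24 on the log2 scale. Relative to that median Gsdmd was at -0.23, and relative to the median under TMM at -0.22.

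None of the 4 gasdermins tested at 14 days had an adjusted p under 0.05, nor did any other gene, 0.0% of 13991 (558 genes, or 3.99%, had an unadjusted p under 0.05). Over the 21 alternatives run for each, adjusted p ranged from 0.731 to 1.0 for Gsdmc2, from 0.731 to 1.0 for Gsdmc3, from 0.878 to 1.0 for Gsdmc4 and from 0.702 to 1.0 for Gsdmd. The 95% intervals leave room for differences of up to 1.51 on the log2 scale in single copies, so similar levels were not shown. None of the 2-day values was tested against the 14-day values, because each time is a table of its own. Set side by side, the summed copies averaged 105 ± 95.9 CPM in KO and 6.33 ± 4.09 CPM in WT at 2 days (SD, n = 4 each), and 82.1 ± 54.7 CPM in KO and 94.6 ± 44.5 CPM in WT at 14 days (SD, n = 5 each). The WT mean at 2 days was the lowest of these 4 means. Because the times were not tested against each other, neither a difference nor a likeness between them is read from these means.

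**Figure D2:**
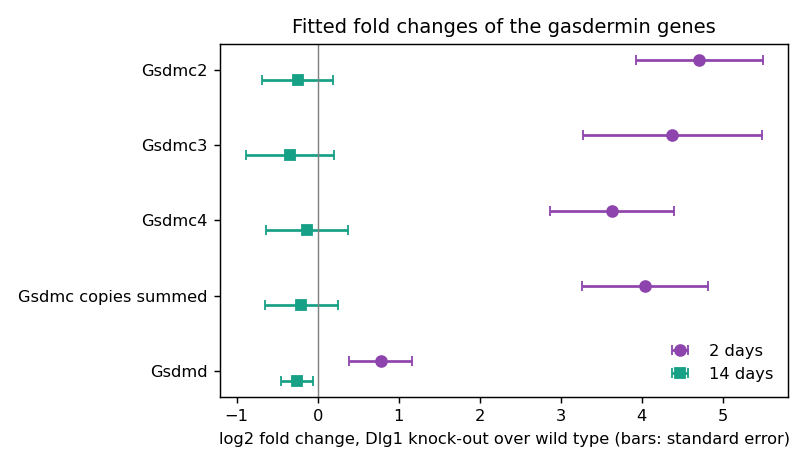
Fitted log2 fold change, KO over WT, of each gasdermin gene and of the summed Gsdmc copies at 2 days (circles) and 14 days (squares); bars are standard errors. The 2-day values of the copies lie between 3.63 and 4.71, the 2-day value of Gsdmd is 0.78, and the 14-day values lie between -0.34 and -0.13.

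To compare genes, CPM were divided by the length of the exons of each gene. In KO at 2 days the means were 25.1 ± 23.4 CPM per kb for Gsdmc4, 15.6 ± 13.4 for Gsdmc2, 12.04 ± 4.04 for Gsdmd and 7.23 ± 7.41 for Gsdmc3 (SD, n = 4), and the order was not the same in every library. In KO libraries 1 and 2 Gsdmd was the highest, at 16.8 and 13.9 CPM per kb beside 4.87 and 8.68 for Gsdmc4. In KO libraries 3 and 4 Gsdmc4 was the highest, at 55.4 and 31.4 CPM per kb beside 8.35 and 9.07 for Gsdmd. In WT at 2 days the means were 7.04 ± 3.24 CPM per kb for Gsdmd, 1.99 ± 1.46 for Gsdmc4, 0.591 ± 0.400 for Gsdmc2 and 0.345 ± 0.324 for Gsdmc3 (SD, n = 4), with Gsdmd the highest in 3 of 4 libraries and Gsdmc4 in WT library 1. At 14 days Gsdmc4 had the highest mean in both genotypes and was the highest gene in 3 of 5 libraries of each, Gsdmd being so in the other 2. The means were 21.6 ± 14.2 CPM per kb in KO and 23.8 ± 14.6 CPM per kb in WT for Gsdmc4, 14.6 ± 2.36 in KO and 17.5 ± 5.78 in WT for Gsdmd, 11.7 ± 7.72 in KO and 13.9 ± 7.65 in WT for Gsdmc2, and 4.23 ± 3.34 in KO and 5.41 ± 3.13 in WT for Gsdmc3 (SD, n = 5 each). The order of Gsdmc4, Gsdmd and Gsdmc2 was not the same in every library at 14 days. Gsdmc3 was below Gsdmc2 in every library of both genotypes, for example 8.48 beside 23.5 CPM per kb in KO library 2 and 4.19 beside 8.74 in WT library 4. Differences between the genes were not tested.

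Gsdmc4 took the largest share of the summed counts in all libraries but KO library 5 at 14 days, where Gsdmc2 did. At 14 days Gsdmc4 took 53.8 ± 8.46% of the summed counts in KO and 51.2 ± 14.2% in WT, Gsdmc2 34.9 ± 6.95% in KO and 34.8 ± 9.07% in WT, and Gsdmc3 11.3 ± 3.32% in KO and 14.0 ± 5.23% in WT (SD, n = 5 each). Two-sided exact permutation tests of these shares gave p = 0.762 for Gsdmc4, 0.992 for Gsdmc2 and 0.341 for Gsdmc3 over 3 comparisons that sum to 100%. The Gsdmc4 share was 75.3% in WT library 3 (exact 95% interval 72.9% to 77.6% for counting error) and 61.2% in KO library 1 (56.6% to 65.6%), the highest of each genotype at 14 days. The same libraries had the highest summed level of 12 enterocyte markers of their genotype, 3912 CPM in KO library 1 and 6158 CPM in WT library 3, where the other KO libraries held 820 to 1795 CPM and the other WT libraries 913 to 1789 CPM. The trait was not particular to enterocyte markers. Both libraries were also the highest of their genotype at 14 days for summed goblet markers, 14259 CPM in KO library 1 and 6521 CPM in WT library 3. The other KO libraries held 2203 to 4484 CPM of these and the other WT libraries 1534 to 2791 CPM. Their mitochondrial shares, 24.2% and 26.3%, were likewise the highest of each genotype. A part of enterocyte, goblet or mitochondrial RNA in these Gsdmc4 shares was not tested. At 2 days Gsdmc4 took 43.6% to 64.2% in KO and 50% to 82.4% in WT, with as few as 36 summed counts in WT library 4.

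**Figure D3:**
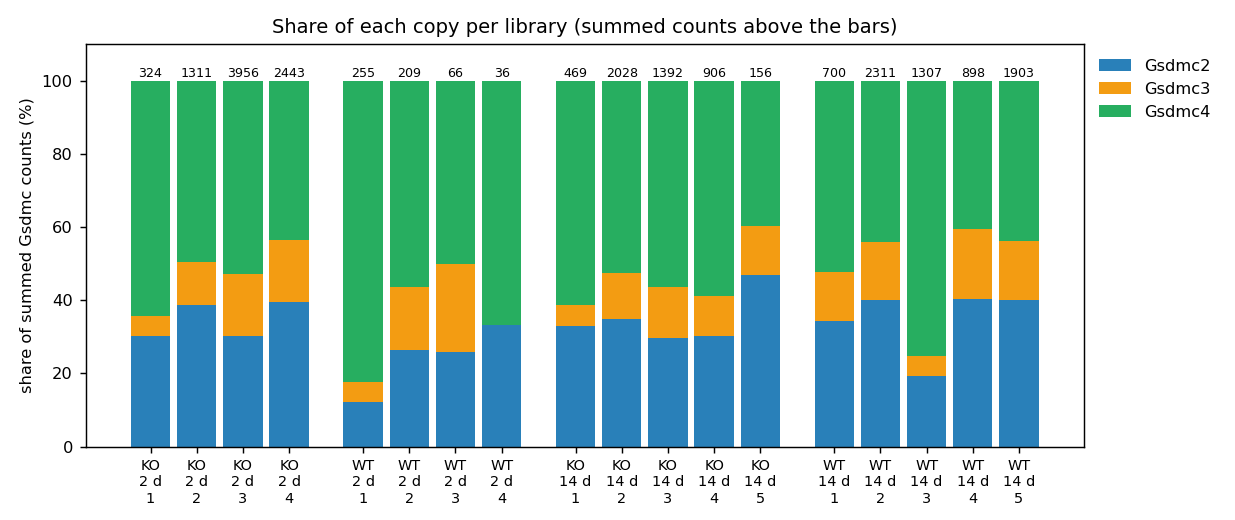
Share of Gsdmc2 (blue), Gsdmc3 (orange) and Gsdmc4 (green) in the summed Gsdmc counts of each library, with the summed counts above each bar. The Gsdmc4 share stands out in WT library 3 at 14 days (75.3%) and in WT library 1 at 2 days (82.4%, from 255 counts).

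Within KO at 2 days, the libraries with high and low Gsdmc copies also differed in sex-linked transcripts, and the labels give no sex. KO libraries 3 and 4 had 0.221 to 0.307 CPM of 4 Y-linked transcripts and 3315 to 5195 CPM of Xist, whereas KO libraries 1 and 2 had 174 to 192 CPM of Y-linked transcripts. The first pair held 59.4 to 66.0 CPM of Gsdmc2 and the second 4.79 to 14.2 CPM. In WT the 2 libraries low in Y-linked transcripts had 1.12 to 2.72 CPM of Gsdmc2 and the 2 others 0.647 to 0.978 CPM. Within libraries low in Y-linked transcripts the summed copies averaged 184 CPM in KO and 9.79 CPM in WT, an 18.8-fold ratio, and within the others 26.2 CPM in KO and 2.87 CPM in WT, a 9.11-fold ratio. With the Y-linked level as a covariate the 2-day log2 fold change was 4.40 for Gsdmc2 and 3.50 for Gsdmc4.

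At 14 days the libraries low in Y-linked transcripts had 54.3 and 10.4 CPM of Gsdmc2 in KO and 54.4 and 47.8 CPM in WT, and the others 13.3 to 34.2 CPM in KO and 14.6 to 24.1 CPM in WT. In both genotypes the highest Gsdmc2 value came from a library low in Y-linked transcripts, but so did the lowest KO value, 10.4 CPM in KO library 5. For Gsdmc4 the highest KO value, 82.3 CPM in KO library 2, came from a library low in these transcripts. Its highest WT value, 94.4 CPM, came from WT library 3, which held 172 CPM of them. The column names at 14 days start with B or J, whose meaning the sources used here do not give. Gsdmc2 averaged 33.8 CPM in KO and 34.5 CPM in WT among B libraries (n = 2 each), and 22.6 CPM in KO and 30.7 CPM in WT among J libraries (n = 3 each). Gsdmd averaged 38.5 CPM in KO and 33.9 CPM in WT among B libraries, and 32.3 CPM in KO and 46.6 CPM in WT among J libraries, so that its direction differed between the letters, which was not tested. With the letter as a term the log2 fold change at 14 days was -0.27 for Gsdmc2 and -0.24 for Gsdmd.

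Markers of differentiated cells also varied between libraries at 2 days. All 12 enterocyte markers had a fitted fold change above 0 (51.0% of all genes tested did), with a median log2 fold change of 1.39 beside 0.0095 over all genes. An unadjusted edgeR p under 0.05 was reached by 8 of the 12, beside 4.91% of all genes tested. Every KO library was above every WT library for 2 of the 12, which 2.03% of all genes tested had. An adjusted p under 0.05 was reached by 0. Their sum was 4515, 1023, 1083 and 1794 CPM in KO libraries and 1421, 1207, 858 and 1033 CPM in WT libraries. KO library 1, the highest for enterocyte markers, was the lowest KO library for the Gsdmc copies. The sum over 8 goblet markers was 484 to 1338 CPM in KO and 501 to 678 CPM in WT, and that over 8 tuft markers 8.57 to 50.7 CPM in KO and 6.96 to 23.2 CPM in WT. The summed stem cell markers were at 4591 to 5315 CPM in KO and 5351 to 5943 CPM in WT, sums that narrowly did not overlap. Of the 10 markers singly, 2 were higher and 8 lower in KO. Of these, 0 had every KO library below every WT library, which 1.94% of all genes tested had, and 0 had an unadjusted edgeR p under 0.05. At 14 days the sums overlapped, at 2195 to 3125 CPM in KO and 2480 to 3373 CPM in WT. All 7 goblet markers tested at 2 days were above 0 on the log2 fold change scale, 2 of them with an unadjusted edgeR p under 0.05. At 14 days 1 of the 12 enterocyte markers was above 0 and 11 below, with a median log2 fold change of -0.40. Of those below, 2 had an unadjusted edgeR p under 0.05, beside 3.99% of all genes tested. All 8 goblet markers were above 0 at that time, beside 51.0% of all genes tested, and 1 of them had an unadjusted edgeR p under 0.05. The part of other epithelial cells in the Gsdmc levels was not tested.

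Among the gasdermins of other loci, Gsdme, which caspase 3 cuts, was the one that passed the filter at both times. It averaged 17.6 ± 4.19 CPM in KO and 20.8 ± 11.5 CPM in WT at 2 days (SD, n = 4 each), with WT library 1 the highest at 37.7 CPM, and 28.0 ± 9.0 CPM in KO and 24.5 ± 2.41 CPM in WT at 14 days (SD, n = 5 each; log2 fold change 0.19, SE 0.21, edgeR adjusted p = 0.957). Gsdma2 passed the filter only at 14 days, at 1.44 ± 1.55 CPM in KO and 1.04 ± 0.387 CPM in WT. Gsdma, Gsdma3 and Pjvk averaged at most 0.333 CPM in any group.

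The copies are interleaved with gasdermin-like pseudogenes on the opposite strand. Gsdmcl2, between Gsdmc3 and Gsdmc4 (chr15:63880707-63890512), had 1, 11, 71 and 110 counts in KO libraries and 0, 0, 1 and 0 counts in WT libraries at 2 days. KO libraries 3 and 4, the highest for the Gsdmc copies, were also the highest here, and its transcripts share no 50-base stretch with those copies. At 14 days it had 3, 59, 52, 28 and 3 counts in KO libraries and 18, 40, 51, 13 and 37 counts in WT libraries, a log2 fold change of 0.10 (SE 0.71, edgeR adjusted p = 0.993). Gsdmcl-ps, beyond Gsdmc4, had 8, 9, 48 and 21 counts in KO libraries and 0, 0, 7 and 1 counts in WT libraries at 2 days. The strand setting of the counting is likewise unstated, so reads of the pseudogenes and of overlapping antisense RNA cannot be told apart.

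The protein-coding neighbours within 500 kb overlapped between the genotypes at both times. Fam49b, next to the cluster, averaged 27.2 ± 8.31 CPM in KO and 24.3 ± 3.85 CPM in WT at 2 days (log2 fold change 0.16) and 40.97 ± 3.84 CPM in KO and 41.5 ± 2.61 CPM in WT at 14 days (log2 fold change -0.018, edgeR adjusted p = 0.993). Asap1, an Arf GTPase-activating protein, averaged 7.57 ± 0.745 CPM in KO and 12.6 ± 5.92 CPM in WT at 2 days. Its log2 fold change was -0.73 (95% interval -1.44 to -0.022, edgeR adjusted p = 0.866). The groups barely overlapped then, with the highest KO library at 8.23 CPM and the lowest WT library at 8.22 CPM. At 14 days Asap1 averaged 17.2 ± 4.32 CPM in KO and 17.6 ± 2.59 CPM in WT (log2 fold change -0.040, edgeR adjusted p = 0.991).

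Proteases that can cut gasdermins were expressed at both times. Of 11, 8 were tested at 2 days, with 7 above 0 and 1 below on the log2 fold change scale (median 0.084), and 7 at 14 days, with 5 above and 2 below (median 0.034). At each time 51.0% of all genes tested were above 0, a share to set beside this and the following lists. Casp1, the inflammatory caspase that cuts Gsdmd, averaged 171 ± 36.6 CPM in KO and 147 ± 9.0 CPM in WT at 14 days (log2 fold change 0.22, SE 0.15, edgeR adjusted p = 0.957). Casp4, the caspase that senses bacterial lipopolysaccharide in the cytosol, was at 183 ± 37.7 CPM in KO and 161 ± 46.2 CPM in WT, and Casp6 at 109 ± 42.6 CPM in KO and 92.4 ± 16.8 CPM in WT, also without passing the test. At 2 days the largest log2 fold change in the list was 1.33 for Gzma, a granzyme of cytotoxic lymphocytes, at 2.93 ± 2.09 CPM in KO and 1.16 ± 0.759 CPM in WT. Casp6 (0.32) and Casp4 (-0.20) followed.

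Inflammasome sensors and adaptors, which activate those caspases, had 3 of 11 tested genes above 0 and 8 below at 2 days, and 5 of 12 above and 7 below at 14 days. Aim2, a sensor of cytosolic DNA, was at 0.879, 0.835, 2.27 and 4.42 CPM in KO libraries and 77.7, 59.96, 3.74 and 60.9 CPM in WT libraries at 2 days, a log2 fold change of -4.63, with WT library 3 inside the KO range. Pycard, the adaptor ASC, was at 108 ± 30.0 CPM in KO and 80.1 ± 6.50 CPM in WT at 2 days (log2 fold change 0.43) and 757 ± 335 CPM in KO and 535 ± 222 CPM in WT at 14 days (0.50, SE 0.32, edgeR adjusted p = 0.957). Naip1, a receptor for bacterial proteins, had a log2 fold change of -0.43 at 2 days. At 14 days Naip5, which recognises flagellin, was at -0.25 (SE 0.14) and Naip2 at 0.26 (SE 0.19), both with an edgeR adjusted p of 0.957.

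Cytokines released through gasdermin pores and factors of membrane rupture had 4 of 5 tested genes above 0 and 1 below at both times, none past the test at 14 days. Hmgb1, a nuclear protein released from lysed cells, averaged 63.5 ± 17.6 CPM in KO and 51.1 ± 11.4 CPM in WT at 14 days (log2 fold change 0.32), Il33 5.40 ± 3.32 CPM in KO and 8.11 ± 3.51 CPM in WT (-0.59), and Il18 34.4 ± 28.2 CPM in KO and 26.98 ± 21.4 CPM in WT (0.36). At 2 days Il33 was at 0.79, Ninj1, which ruptures the membrane of dying cells, at 0.26 and Hmgb1 at -0.24 on the log2 fold change scale.

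Genes of type 2 cytokine signalling, the known upstream route to the Gsdmc copies, had 11 of 12 tested genes above 0 and 1 below at 2 days. Of all genes tested 51.0% were above 0. The list median was 0.31 on the log2 fold change scale, beside 0.0095 over all genes, and 0 of the 12 had an unadjusted edgeR p under 0.05. At 14 days 7 of 13 were above and 6 below (median 0.0077, beside 0.0056 over all genes). A part of this route in the Gsdmc levels was not tested. The 2-day fold changes of largest size were 0.79 for the cytokine Il33, 0.66 for the kinase Jak3 and 0.64 for the feedback inhibitor Cish. Il33 is also in the list of released cytokines above. At 14 days Cish averaged 14.8 ± 3.46 CPM in KO and 21.3 ± 10.7 CPM in WT (log2 fold change -0.53), the receptor chain Il13ra1 54.7 ± 13.8 CPM in KO and 45.3 ± 6.22 CPM in WT (0.27), and the inhibitor Socs1 2.75 ± 0.895 CPM in KO and 1.80 ± 0.983 CPM in WT (0.60), each with an edgeR adjusted p of 0.957.

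Epithelial genes that type 2 cytokines are known to induce had 6 of 7 tested genes above 0 and 1 below at 2 days, where 51.0% of all genes were above 0. Their median log2 fold change was 0.80, beside 0.0095 over all genes, and 2 of the 7 had an unadjusted edgeR p under 0.05. This list shares Clca1 and Fcgbp with the goblet markers and Dclk1 with the tuft markers, whose median was 0.80 too. The lists are therefore not separate sets of genes. At 14 days 6 of 9 were above and 3 below (median 0.36). Pla2g4c, a cytosolic phospholipase, was at 0.977, 2.53, 20.6 and 8.66 CPM in KO libraries and 0.434, 1.58, 0.978 and 0.486 CPM in WT libraries at 2 days, a log2 fold change of 3.23 (SE 0.85). KO libraries 3 and 4, the highest for the Gsdmc copies, were the highest for it too, and KO library 1 lay within WT. Clca1, a goblet cell product, was at 36.9, 141, 198 and 107 CPM in KO libraries and 31.2, 55.5, 32.6 and 34.0 CPM in WT libraries (log2 fold change 1.66), and Dclk1, a tuft cell marker, at 6.01 ± 5.18 CPM in KO and 3.48 ± 3.32 CPM in WT (0.80). At 14 days Clca1 (0.47, SE 0.32), Fcgbp (0.49, SE 0.39) and Ang4 (-0.57, SE 0.47) had the smallest p in the list, each with an edgeR adjusted p of 0.957, and Pla2g4c averaged 7.45 ± 3.66 CPM in KO and 6.87 ± 3.21 CPM in WT.

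**Figure D4:**
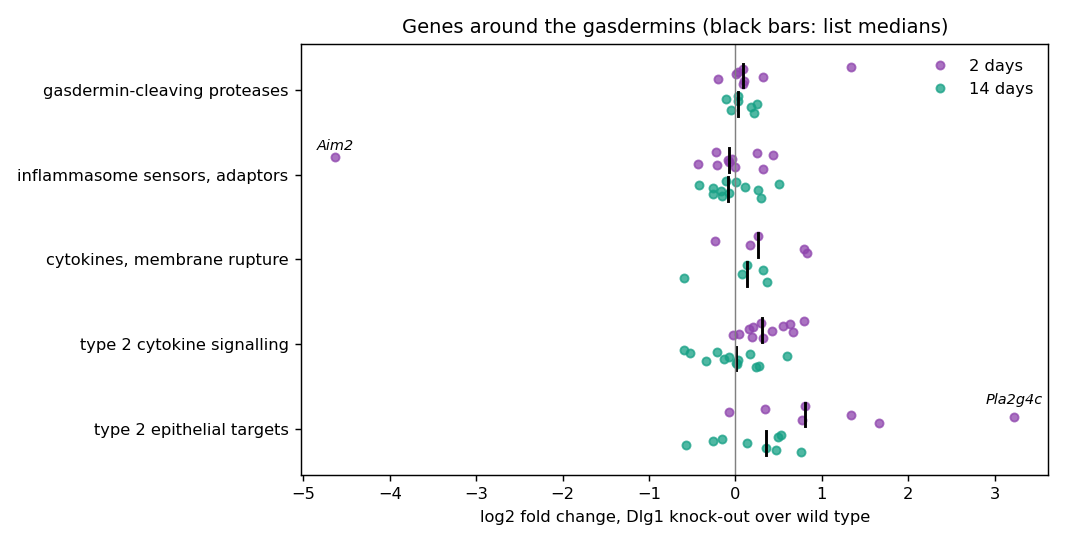
Fitted log2 fold change, KO over WT, of every tested gene in 5 lists around the gasdermins, at 2 days (purple) and 14 days (green), with list medians as black bars. Pla2g4c (3.23) and Aim2 (-4.63) at 2 days lie farthest from 0, and at 14 days no gene of these lists passed the test.

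A Gsdmc copy followed the log2 CPM of Gsdmc2 most closely at each time, and other genes made up most of the 5 closest. Over the 8 libraries at 2 days, among 10538 genes, Pearson's r was 0.96 for Gsdmc4, 0.95 for the ribosomal protein gene Rps21, and 0.94 each for Pla2g4c, Gsdmc3 and Tmem102. Over the 10 libraries at 14 days, among 11038 genes, r was 0.95 for Gsdmc3, 0.92 for Rab43, 0.89 for Scly, 0.88 for Acot1 and 0.87 for Nek7, and that of Gsdmc4 was 0.80. Gsdmd did not follow, with r of 0.32 at 2 days and -0.24 at 14 days. These values are a description over libraries that share genotype and scaling, and the copies may share reads.

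The promoter window of Gsdmc3, 250 bases before to 50 after its start in RefSeq's GRCm38.p6 annotation, was searched on both strands for 6 motifs, and those of the other 4 genes were not analysed here. The STAT motifs TTCNNNNGAA and TTCNNNGAA, the TCF/LEF core CTTTGA, the GATA motif AGATAA and the TATA letters TATAAA had 0 matches, against 6.95%, 8.3%, 16.0%, 11.2% and 13.6% of 32851 promoter windows, in that order. This says only that these letters do not occur in that window. The longer TATA form TATATAAG, added after the window was read, had 1 match, 29 bases before the start, and occurs in 1.01% of the windows.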

How the data were processed

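The values deposited by the authors are raw whole-number counts of reads for each Ensembl gene, with a separate table for each time. Per the labels' protocols, poly(A) RNA was amplified by SmartSeq and libraries were built with Nextera XT. The labels name no molecular identifiers, so intervals cover counting error only. Per the submitters' processing notes, STAR 2.4.2a, bcl2fastq 2.20.0.422 and the build GRCm38 were used. Annotation, counter, strandedness and the handling of multiply matching reads were not given in the sources used here.

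Libraries were grouped by the start of the column name (WT, Dko or Dmin). Dmin was taken to mean Dlg1 minus, hence knock-out, and all 2-day comparisons depend on it. Libraries were numbered by their place in the table. Columns with no group numbered 0. At most 0.218% of a library's counts fell on identifiers that matched no symbol.

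Each time was fitted alone with edgeR 4.0.16 in R 4.3.3 (filterByExpr with a minimum count of 10, TMM, quasi-likelihood F-test, Benjamini-Hochberg over all genes, called at an adjusted p under 0.05). CPM are counts over TMM-scaled totals of the genes kept. The SE is the absolute log2 fold change over the square root of F, and 95% intervals use the fit's degrees of freedom. Exact permutation tests compared mean log2(CPM + 0.5), two-sided. The script was tested on simulated data. Symbols and coordinates come from GENCODE M21 (42462 identifiers matched), coding sequences were aligned with MAFFT 7.526, and the promoter table is RefSeq's. The lowest total was 11.1 M counts, in KO library 5 at 14 days, where 3 counts came to 0.428 CPM of the TMM-scaled total, the highest such limit.

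The genes and lists were chosen with earlier results of these data known. Genes named are the 5 gasdermins, other gasdermins, neighbours within 500 kb, Dlg1 and Arhgap31, the 5 genes most correlated with Gsdmc2 per time (average log2 CPM of at least 1), and from each list the 3 of smallest p at 14 days and of largest absolute log2 fold change at 2 days (average log2 CPM of at least 1). Markers, Gm10800, Xist and Pla2g4c at 14 days were named beside them. Alternatives were RLE and upper-quartile factors, no filter, a minimum count of 50, DESeq2 1.42.0, limma 3.58.1 voom, all 18 libraries in 1 fit, a Y-linked covariate, no mitochondrial genes, and each library left out. Added after seeing the data were the column letter as a term, the 100 top genes of any library left out, and raw totals.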

Additional observations from a re-analysis of the deposited data

Results flagged for a closer look

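Of 20 sets of values checked for a library far from the rest of its group (the 3 counted Gsdmc copies, their sum and Gsdmd in 4 groups), 1 stood out. Gsdmd in WT library 3 at 14 days was at 65.8 CPM, against 32.3 to 38.3 CPM in the other 4 WT libraries. Chance alone marks about 1 in 20 groups. The same library had the highest summed enterocyte markers, 6158 CPM, and the highest Gsdmc4 share at 14 days, 75.3%. It was also the highest at 14 days for summed Paneth markers, 15540 CPM, and for mitochondrial share, 26.3%. Without it the log2 fold change of Gsdmd at 14 days was -0.029.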

How the results depend on the processing

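The 2-day fold changes of the Gsdmc copies and Gsdmd kept their direction in every alternative that gave a value. Each moved by less than the SD of log2(CPM + 0.5) within groups, a wide limit for the copies because the KO libraries differed widely. The 2-day contrast chose these genes, so this is a description only. On the log2 scale the values ran from 4.09 to 4.72 for Gsdmc2, from 3.83 to 4.39 for Gsdmc3, from 3.14 to 3.67 for Gsdmc4 and from 0.76 to 1.03 for Gsdmd. When each library was left out they ran from 4.23 to 5.27 for Gsdmc2, 3.62 to 5.13 for Gsdmc3, 2.88 to 4.10 for Gsdmc4 and 0.48 to 0.96 for Gsdmd. Of these, KO library 3 (sum 3.40, Gsdmc3 3.62, Gsdmc4 2.88) and WT library 2 (Gsdmc3 5.13) moved a 2-day value by over 1.5 times when left out. At 14 days no alternative ended in an adjusted p under 0.05 for any of them. With raw totals the exact test of Gsdmd passed, at -0.47 (p = 0.00794), along with a shift of all genes. Leaving out each library gave -0.66 to 0.029 for Gsdmc2, -0.46 to 0.23 for Gsdmc4 and -0.57 to 0.022 for the summed copies at 14 days, and in the exact tests -0.56 to 0.21 for Gsdmc4 and -0.67 to 0.0098 for the sum. The values above 0 came without KO library 1 (Gsdmc4 0.025), KO library 5 (Gsdmc4 0.11, exact 0.21; sum 0.022, exact 0.0098), WT library 2 (Gsdmc2 0.029) and WT library 3 (Gsdmc4 0.23, exact 0.028). Genes called among all genes at 2 days numbered 0 with edgeR and limma voom, 7 without a filter, 11 with DESeq2, 2 with all 18 libraries in 1 fit (Aim2 and Gsdmc2), 2 with the Y-linked covariate (Gsdmc2 and Gsdmc4), and 0 to 1 when a library was left out (Aim2, without WT library 3). These 2-day calls include the genes picked in that contrast and support nothing. At 14 days the number was 0 with edgeR and limma voom, 2 without a filter (Arhgap31 and Ghrl) and 1 with DESeq2 (Arhgap31), and 0 when any library was left out. The cause of these changes was not tested. Summing the copies before the fit gave the summed values reported. In the 100 bases before the Gsdmc3 start, the 5 letter strings without a match in the whole window had 0 matches, and TATATAAG had 1. No paired analysis was possible because the columns carry no replicate numbers from the labels. Depth limits Gsdmc (0 counts throughout) and the shares in WT at 2 days, which rest on 36 to 255 summed counts.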

Other observations

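Retnlb, an antimicrobial product of goblet cells, was at 14.95 ± 11.6 CPM in KO and 8.96 ± 10.1 CPM in WT at 14 days (SD, n = 5 each), and at 0.265 ± 0.194 CPM in KO and 0.0495 ± 0.0990 CPM in WT at 2 days (SD, n = 4 each), chosen after its values were seen. Arg1, the arginase of type 2 responses, was the 1 gene among its type 2 list with every KO library above every WT library at 2 days, which 2.03% of all genes tested had, averaging 1.86 ± 0.966 CPM in KO and 0.732 ± 0.202 CPM in WT. It was named for this after its values were seen. At 14 days Arg1 averaged 2.68 ± 0.898 CPM in KO and 3.19 ± 0.937 CPM in WT (log2 fold change -0.26, edgeR adjusted p = 0.961).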
